A study of Mus musculus with 7 samples.

Results

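The genes described here encode the acid pump, the membrane proteins and the degradative enzymes of the lysosome, together with 3 transcription factors that act on lysosomal genes. They are 38 genes chosen by symbol from the 40743 genes of the deposited table, by their known role and not by a measured value. All 38 were found, and all 38 were among the 17496 genes that reached at least 1 CPM (the reads of a gene scaled to the same total in every library) in at least 3 libraries and were tested. The study asked how retinal microglia that lack Irf8, a myeloid transcription factor, respond to laser-induced choroidal neovascularisation, a mouse model of the vessel growth beneath the retina in macular degeneration. RNA was sequenced from 3 libraries of Irf8 KO mice without laser and 4 libraries of Irf8 KO mice with laser. Both groups were adult Irf8-/- Cx3cr1GFP/+ mice on a C57BL/6J background, so that by their stated genotype all animals lacked Irf8 and carried 1 GFP allele at Cx3cr1. The study states that Cx3cr1 is expressed by retinal microglia and also by macrophages derived from infiltrating monocytes. Wild-type mice were not analysed here.

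Lasered eyes received 3 to 6 laser spots and were taken 7 days later. Each library held an average of 10000 sorted CD45low CD11b+ Cx3cr1GFP/+ Ly6C- Ly6G- cells pooled from 3 to 4 mice, so the spread between libraries is a spread between pools. Only the central 70% of the lasered retinae was used, and laser and retinal region therefore cannot be told apart. In these bulk libraries, fewer cells of a type and less RNA per cell cannot be told apart either.

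The vacuolar ATPase (V-ATPase) pumps protons into the lysosome: the V1 sector on the cytosolic face hydrolyses ATP, and the V0 sector in the membrane carries the protons. The acid lumen lets hydrolases break down sugars, lipids and proteins delivered by phagocytosis and autophagy, and the heavily glycosylated LAMP proteins line the membrane. Microglia clear debris through this route, and the loss of many of these genes causes lysosomal storage or neurodegenerative disease in humans. The basic helix-loop-helix factors TFEB, TFE3 and MITF bind E-box sequences in front of many lysosomal genes.

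The libraries held 20427558 to 36022954 reads without laser and 44136798, 44898744, 45919042 and 37133297 reads with laser. At these depths 3 reads correspond to 0.0653 to 0.147 CPM. Irf8 itself was read at 489 to 530 CPM without laser and at 463 to 582 CPM with laser, so reads of the gene are still counted in the libraries labelled Irf8 KO. Values per gene do not show whether these reads come from the deleted part, so they do not check the deletion, and the groups are named by their labels. The 8 microglial markers summed to 20928 to 27762 CPM over the 7 libraries. RNA of rod photoreceptors, taken as the sum of 15 genes, stood at 2224, 20126 and 5802 CPM in the unlasered group and at 323 to 1013 CPM in the lasered one. Unlasered library 2 stands apart from the rest by this sum. Of the 15 rod genes 14 were called lower after laser (limma, adjusted p under 0.05), against 3.07% of all genes tested. The 6 markers of border macrophages summed to 1201 to 1304 CPM without laser and to 650 to 975 CPM with laser, with 1 of the 6 called lower and Lyve1 at 0 to 1.11 CPM. The largest of these were Mrc1, at 295 to 779 CPM, and Pf4, at 240 to 636 CPM. The study reports higher Mrc1 transcript and CD206 protein in retinal microglia that lack Irf8, so Mrc1 need not mark other cells here. The 8 monocyte markers summed to 45.8 to 117 CPM without laser and to 27.5 to 242 CPM with laser. The part of RNA from other cells in the results below was not tested.

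The 38 genes together took 2.06% to 2.36% of the reads of each library. Their summed level was 21853, 20642 and 21615 CPM without laser and 22562, 21854, 23603 and 23254 CPM with laser. Lasered library 2 was level with unlasered library 1, and the other lasered libraries lay above all unlasered ones. Without the 3 genes with most reads, Laptm5, Lgmn and Grn, the other 35 summed to 12088 to 12411 CPM without laser and to 12015 to 13385 CPM with laser, and the groups overlapped.

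After laser 2 of the 38 genes rose and none fell at an adjusted p under 0.05 (limma on log2(CPM + 1), Benjamini-Hochberg over all genes tested). The 2 were Grn, the gene of progranulin, and Gusb, the gene of beta-glucuronidase. Over all 17496 genes tested, 6.93% were called, 3.86% higher and 3.07% lower, against 2 of 38 here. At an unadjusted p under 0.05 there were 11 of 38 genes, 6 higher and 5 lower after laser, against 22.7% of all genes tested. The levels of the groups did not overlap for 9 of 38 genes, 7 higher and 2 lower after laser, against 21% of all genes, 10.4% higher and 10.7% lower. The log2 fold change was above 0 for 19 genes and below 0 for 19, with a median of -0.0044 beside -0.014 over all genes tested. The members' share called, at 2 of 38, is near that of all genes, and whether the split of the genes without overlap, 7 higher and 2 lower, differs from that of all genes was not tested. Run on whole reads recovered from the CPM values, edgeR called 1 of the 38 genes (Grn) where it called 7.33% of all genes, and DESeq2 called 3 (Grn, Gusb and Naglu) where it called 13.3%.

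**Figure D1:**
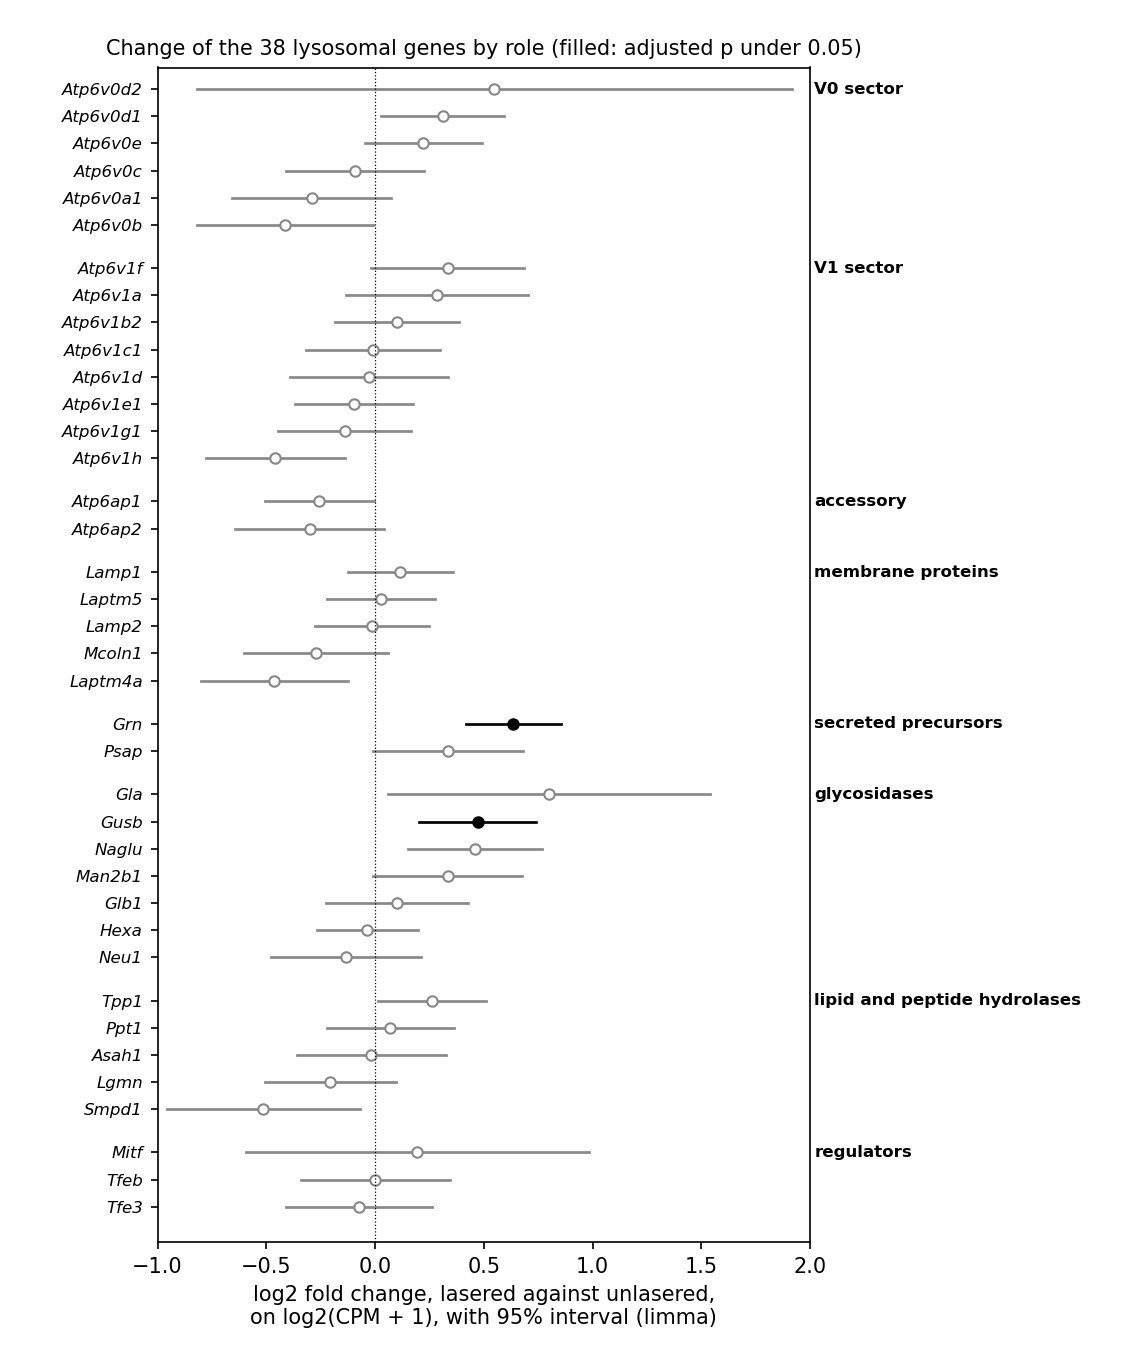
Log2 fold change of each of the 38 genes, lasered against unlasered, on the log2(CPM + 1) scale with its 95% interval from limma, grouped by role on the vertical axis. Filled points are the 2 genes with an adjusted p under 0.05, Grn at 0.64 and Gusb at 0.47, and the others are spread to both sides of 0.

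Per kilobase of exon, the levels of the 38 genes spanned a wide range in the same libraries. Lgmn, the gene of the asparaginyl endopeptidase legumain, had the highest level at 1143 CPM per kilobase averaged over the 7 libraries, with single libraries from 942 to 1415. Laptm5, a lysosomal membrane protein of haematopoietic cells and microglia, followed at 1045 CPM per kilobase with a range of 936 to 1185, and Grn came next at 873 with a range of 631 to 1079. Without laser Grn, at 663 ± 32.4 CPM per kilobase (SD, n = 3), lay below every value of the other two genes, while with laser, at 1031 ± 58.7 (SD, n = 4), its range overlapped theirs. Lgmn and Laptm5 overlapped in both groups. Laptm4a, Hexa and Psap lay below them at 418, 415 and 409 CPM per kilobase. The V-ATPase subunits lay lower, from 143 CPM per kilobase for Atp6v1g1 to 11.0 for Atp6v1h, with Atp6v0d2 far below at 0.960. The lowest levels besides Atp6v0d2 were those of Tfeb, Gla, Mitf and Mcoln1, between 5.04 and 6.37 CPM per kilobase. With the longest annotated transcript as the length in place of all exons, Laptm5 led Lgmn and Grn, and 3 of the 5 genes at the top were shared.

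**Figure D2:**
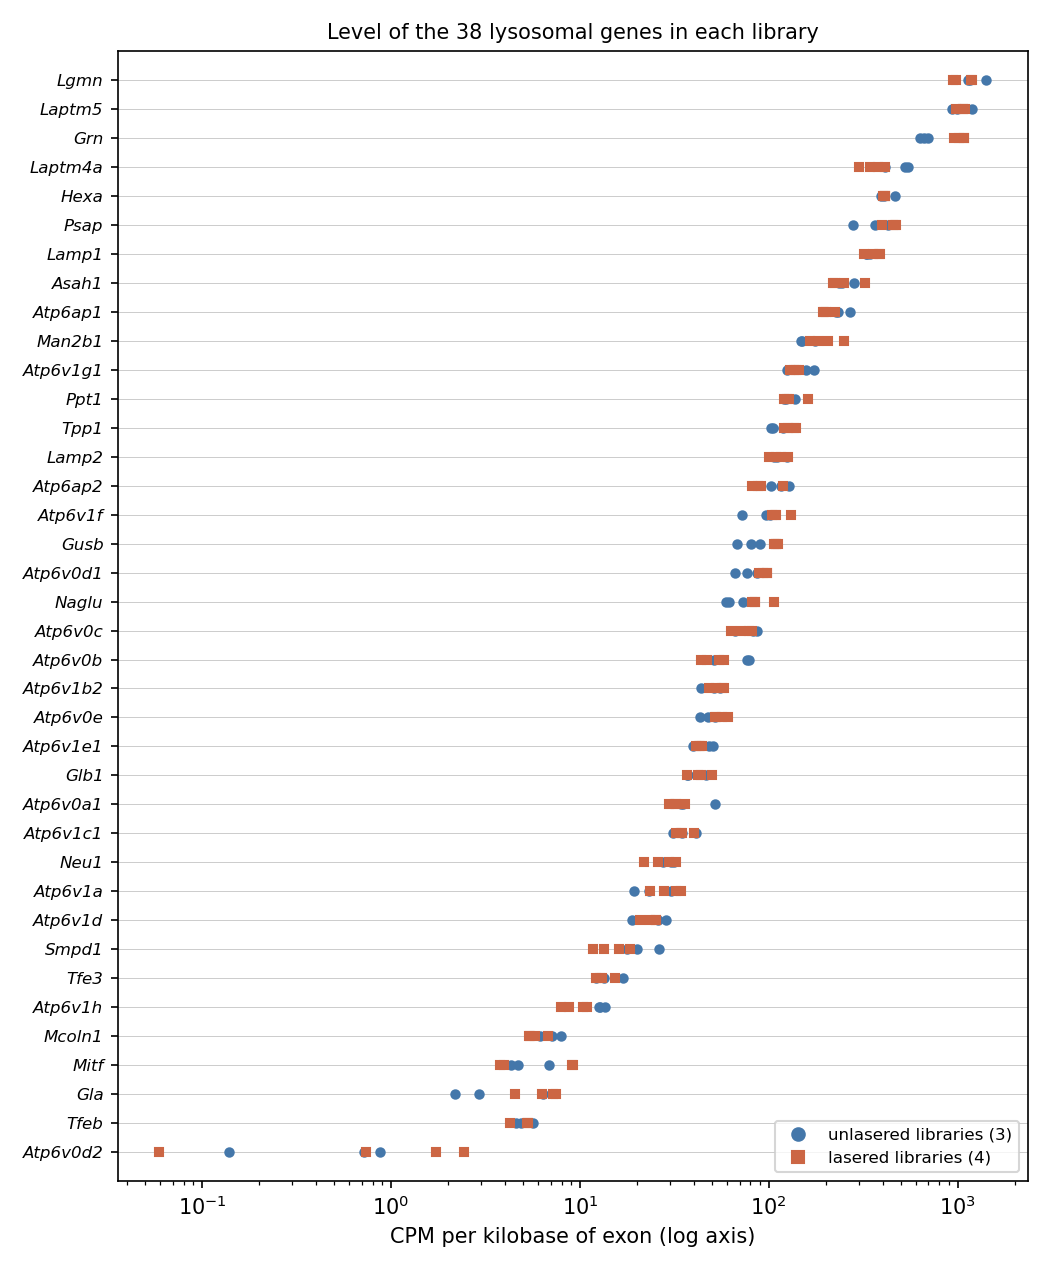
Level of each of the 38 genes in CPM per kilobase of exon on a log axis, with genes ordered by their mean over the 7 libraries, circles for the 3 unlasered and squares for the 4 lasered libraries. Lgmn, Laptm5 and Grn are at the top, the circles and squares of Grn are apart, and Atp6v0d2 at the bottom is the most scattered.

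Among the secreted precursors, Grn rose after laser. Grn (ENSMUSG00000034708, chr11:102430315-102437048, plus strand, GRCm38) encodes progranulin, a secreted glycoprotein that is taken to the lysosome and cut into granulins there. Its level was 2416, 2301 and 2191 CPM in the 3 unlasered libraries and 3735, 3520, 3748 and 3317 CPM in the 4 lasered ones. Every lasered library lay well above every unlasered one. Means were 2302 ± 113 (SD, n = 3) and 3580 ± 204 (SD, n = 4) CPM, a ratio of 1.55, on 49349 to 172092 reads per library. The log2 fold change was 0.64 with a standard error of 0.10 and a 95% interval of 0.42 to 0.85 (limma, adjusted p = 0.0106), and without unlasered library 2 it was 0.64 with an adjusted p of 0.0326. An opposite-strand neighbour, Fam171a2, shares 68 exon bases with Grn in an unstranded library, and was itself listed at 0 to 0.467 CPM. Psap encodes prosaposin, the precursor of the saposins that activate sphingolipid hydrolases, and a binding partner of progranulin. Its level was 767, 1004 and 1179 CPM without laser and 1295, 1087, 1241 and 1277 CPM with laser, so that lasered library 2 lay below unlasered library 3. The log2 fold change of Psap was 0.34 with an interval of -0.01 to 0.68 (limma, adjusted p = 0.230), and it was 0.17 without unlasered library 1, the lowest of all.

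Of the 7 glycosidases, Gusb rose, none fell, and 6 did not pass the test in limma, which called 6.93% of all genes tested. An unadjusted p under 0.05 in limma was reached by 3 of the 7, all higher after laser, against 22.7% of all genes tested. The median log2 fold change of the group was 0.33 beside -0.014 over all genes. Gusb (ENSMUSG00000025534, chr5:129989011-130003049, minus strand) encodes beta-glucuronidase, which removes glucuronic acid from glycosaminoglycans. Its level was 407, 310 and 367 CPM without laser and 487, 499, 512 and 496 CPM with laser. The lasered libraries lay close together and all above the unlasered ones, which were spread more widely, at 499 ± 9.99 (SD, n = 4) against 361 ± 48.6 (SD, n = 3) CPM. The log2 fold change was 0.47 with a standard error of 0.12 and an interval of 0.20 to 0.74 (limma, adjusted p = 0.0475). The call lies near the threshold and was made in 4 of 14 alternative fits, and not at the study's thresholds. Without unlasered library 2, the lowest of all, the log2 fold change was 0.37 with an adjusted p of 0.140 in limma.

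Naglu encodes alpha-N-acetylglucosaminidase, an enzyme of heparan sulfate breakdown. Its level was 193, 158 and 165 CPM without laser and 225, 217, 224 and 283 CPM with laser. The groups did not overlap, and lasered library 4 lay far above the other 3. The log2 fold change of 0.46, with an interval of 0.15 to 0.77, did not pass the test (limma, adjusted p = 0.0808). Gla encodes alpha-galactosidase A, which takes galactose from glycolipids. It was read at 7.10, 20.8 and 9.49 CPM without laser and at 23.6, 20.5, 24.3 and 14.7 CPM with laser. Unlasered library 2, the one with most rod RNA, reached the lasered range, and the log2 fold change was 0.80 with an interval of 0.06 to 1.54 (limma, adjusted p = 0.187). Without that library Gla had a log2 fold change of 1.22 and an adjusted p of 0.0362 in limma. Without unlasered library 1, the lowest of all, it had 0.50 and an adjusted p of 0.454 in limma.

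The remaining glycosidases did not pass the test in limma, edgeR or DESeq2, and none had an unadjusted p under 0.05. Hexa, the alpha subunit of beta-hexosaminidase, had the highest level per kilobase of the group. Its level was 924, 816 and 780 CPM without laser and 826, 825, 818 and 803 CPM with laser, with a log2 fold change of -0.03 and an interval of -0.27 to 0.20. The lasered libraries lay inside the range of the unlasered ones. Man2b1, lysosomal alpha-mannosidase, ranged from 1183 to 1414 CPM without laser and from 1329 to 2004 CPM with laser, with a log2 fold change of 0.33 and an interval of -0.01 to 0.68. Glb1, beta-galactosidase, and Neu1, a sialidase that works in a complex with it, had log2 fold changes of 0.10 and -0.13. Glb1 shares 165 exon bases with Tmppe on the same strand, so reads from those bases cannot be told apart.

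Of the 5 lipid and peptide hydrolases none passed the test in limma, edgeR or DESeq2, which called 6.93%, 7.33% and 13.3% of all genes tested. In limma 2 had an unadjusted p under 0.05, 1 in each direction, against 22.7% of all genes tested. Tpp1 encodes tripeptidyl peptidase 1, a serine protease that takes tripeptides from protein ends. Its level was 542, 530 and 616 CPM without laser and 702, 624, 716 and 654 CPM with laser. The groups did not overlap, and the log2 fold change was 0.26 with an interval of 0.01 to 0.51 (limma, adjusted p = 0.196). Smpd1 encodes acid sphingomyelinase, which turns sphingomyelin into ceramide. Its level was 59.4, 88.0 and 66.7 CPM without laser and 44.8, 53.7, 38.9 and 61.5 CPM with laser, so that lasered library 4 lay above unlasered library 1. The log2 fold change was -0.51 with an interval of -0.96 to -0.07 (limma, adjusted p = 0.157). Lgmn, the gene with the highest mean level per kilobase of all exons, was read at 3286, 2708 and 2621 CPM without laser and at 2263, 2187, 2741 and 2778 CPM with laser. Lasered libraries 1 and 2 lay below and libraries 3 and 4 within the unlasered range, and the log2 fold change was -0.21 with an interval of -0.51 to 0.09, and -0.10 without unlasered library 1, the highest of all. Asah1, acid ceramidase, ranged from 800 to 960 CPM without laser and from 742 to 1090 CPM with laser. Ppt1, a thioesterase that strips palmitate from proteins, ranged from 444 to 504 CPM and from 444 to 591 CPM. Asah1 and Ppt1 had log2 fold changes of -0.02 and 0.07.

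**Figure D3:**
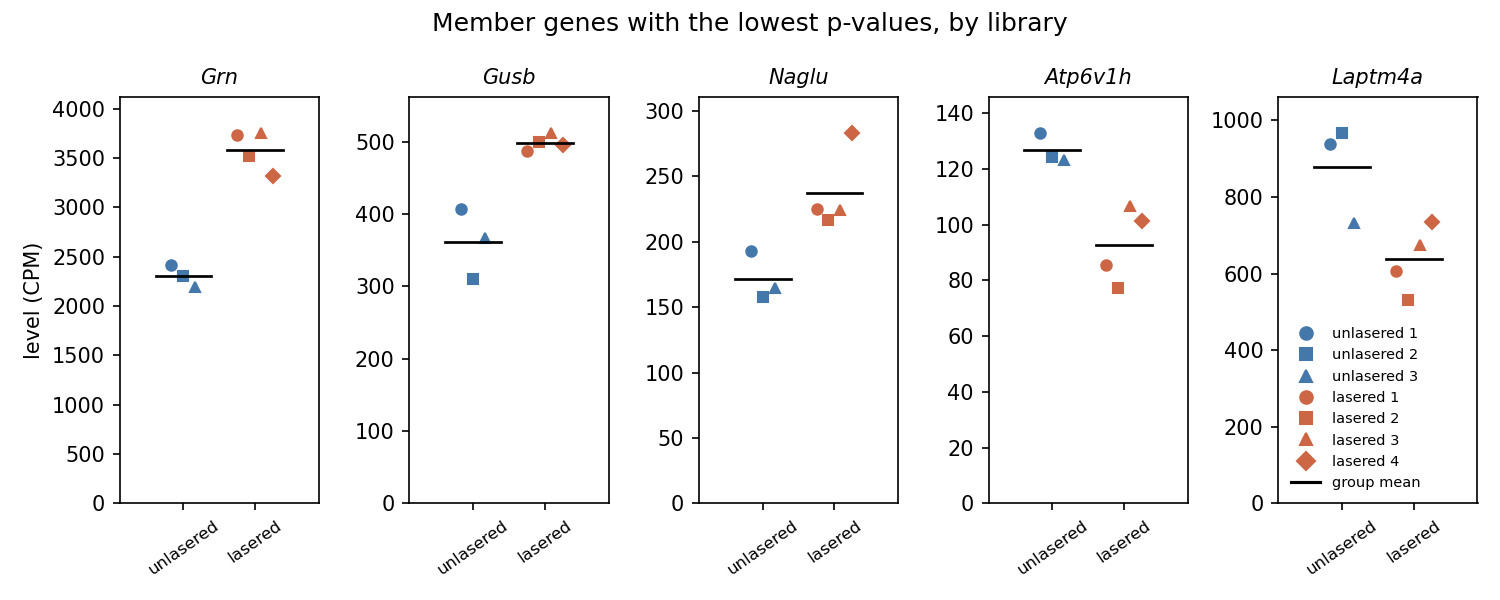
Level in CPM of the 5 member genes with the lowest p-values in each of the 3 unlasered (left) and 4 lasered (right) libraries, with black lines at the group means and vertical axes that start at 0. Grn, Gusb and Naglu show no overlap with higher lasered levels, Atp6v1h shows none with lower lasered levels, and Laptm4a overlaps by lasered library 4.

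The summed level of the V-ATPase subunits overlapped between the groups. The 14 subunit genes summed to 2369, 2349 and 2176 CPM without laser and to 2283, 2317, 2219 and 2222 CPM with laser. All 4 lasered sums lay inside the unlasered range, at 2260 ± 47.9 (SD, n = 4) against 2298 ± 107 (SD, n = 3) CPM. The difference of the means, lasered minus unlasered, was -37.8 CPM, from -99.1 CPM without unlasered library 3 to -2.30 CPM without unlasered library 1, and was -12.1 CPM without unlasered library 2. With median-of-ratios scaling, which raised the median log2 fold change of all genes by 0.07, it was 90.9 CPM. The 6 V0 genes summed to 987 ± 31.2 CPM (SD, n = 3) and 945 ± 43.4 CPM (SD, n = 4), and the 8 V1 genes to 1311 ± 77.2 and 1315 ± 26.6 CPM. None of the 14 passed the test in limma, edgeR or DESeq2, which called 6.93%, 7.33% and 13.3% of all genes tested. In limma 3 had an unadjusted p under 0.05, 1 higher and 2 lower, against 22.7% of all genes tested.

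In the V0 sector the genes went both ways, with 3 of 6 log2 fold changes above 0. Atp6v0d1 encodes the d subunit found in most cells, which links the membrane ring to the central stalk. It was read at 137, 156 and 119 CPM without laser and at 176, 167, 176 and 160 CPM with laser. The groups did not overlap, and the log2 fold change was 0.31 with an interval of 0.03 to 0.59 (limma, adjusted p = 0.181). Atp6v0d2 is the isoform of the same subunit that is abundant in osteoclasts and some macrophages. Its level was 1.96, 0.380 and 2.39 CPM without laser and 1.99, 6.64, 4.73 and 0.162 CPM with laser, on 6 to 298 reads per library. The lasered libraries hold both the highest and the lowest value, and the log2 fold change of 0.55 had an interval of -0.82 to 1.92. Without 1 library it ran from 0.15 without unlasered library 2 (limma, adjusted p = 0.941) to 1.08 without lasered library 4 (adjusted p = 0.205), and edgeR gave 1.11. Atp6v0b, a proteolipid of the ring, ranged from 105 to 161 CPM without laser and from 89.5 to 119 CPM with laser, with a log2 fold change of -0.41 (limma, adjusted p = 0.209). Without unlasered library 3, the lowest of its group, Atp6v0b had -0.61 with an adjusted p of 0.0429 in limma. Atp6v0e, a small membrane subunit, ranged from 160 to 192 CPM and from 194 to 225 CPM without overlap, with a log2 fold change of 0.22. Atp6v0a1, the isoform of the large a subunit typical of neurons, and Atp6v0c, the main proteolipid of the ring, had log2 fold changes of -0.29 and -0.09. The reads of Atp6v0c were listed only jointly with an overlapping gene, and its processed copy Atp6v0c-ps1 was listed at 18.5 to 24.2 CPM.

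In the V1 sector 3 of 8 log2 fold changes were above 0. Atp6v1h encodes the H subunit, which regulates ATP hydrolysis and sits where V1 meets V0. Its level was 133, 124 and 123 CPM without laser and 85.5, 77.1, 107 and 101 CPM with laser. Every lasered library lay below every unlasered one, and the log2 fold change was -0.46 with a standard error of 0.14 and an interval of -0.78 to -0.14 (limma, adjusted p = 0.0921). Atp6v1h shares 127 exon bases with Rgs20 on the opposite strand, and Rgs20 was read at 11.1, 23.7 and 6.75 CPM without laser and at 1.16, 1.20, 1.09 and 0.593 CPM with laser. Rgs20 thus fell by 12.8 CPM in its mean, and reads from the shared bases cannot be told apart. Atp6v1g1, a stalk subunit, had the highest level per kilobase of all V-ATPase genes. It was read at 198, 178 and 142 CPM without laser and at 147, 157, 154 and 163 CPM with laser, with a log2 fold change of -0.14 that ran from -0.27 without unlasered library 3 to -0.037 without unlasered library 1. Its lasered libraries lay inside the unlasered range. Atp6v1a and Atp6v1b2, which form the catalytic ring, had log2 fold changes of 0.29 and 0.10, and Atp6v1f, in the central stalk, had 0.33 without overlap of the groups. The stalk subunits Atp6v1c1, Atp6v1d and Atp6v1e1 had log2 fold changes between -0.10 and -0.01.

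**Figure D4:**
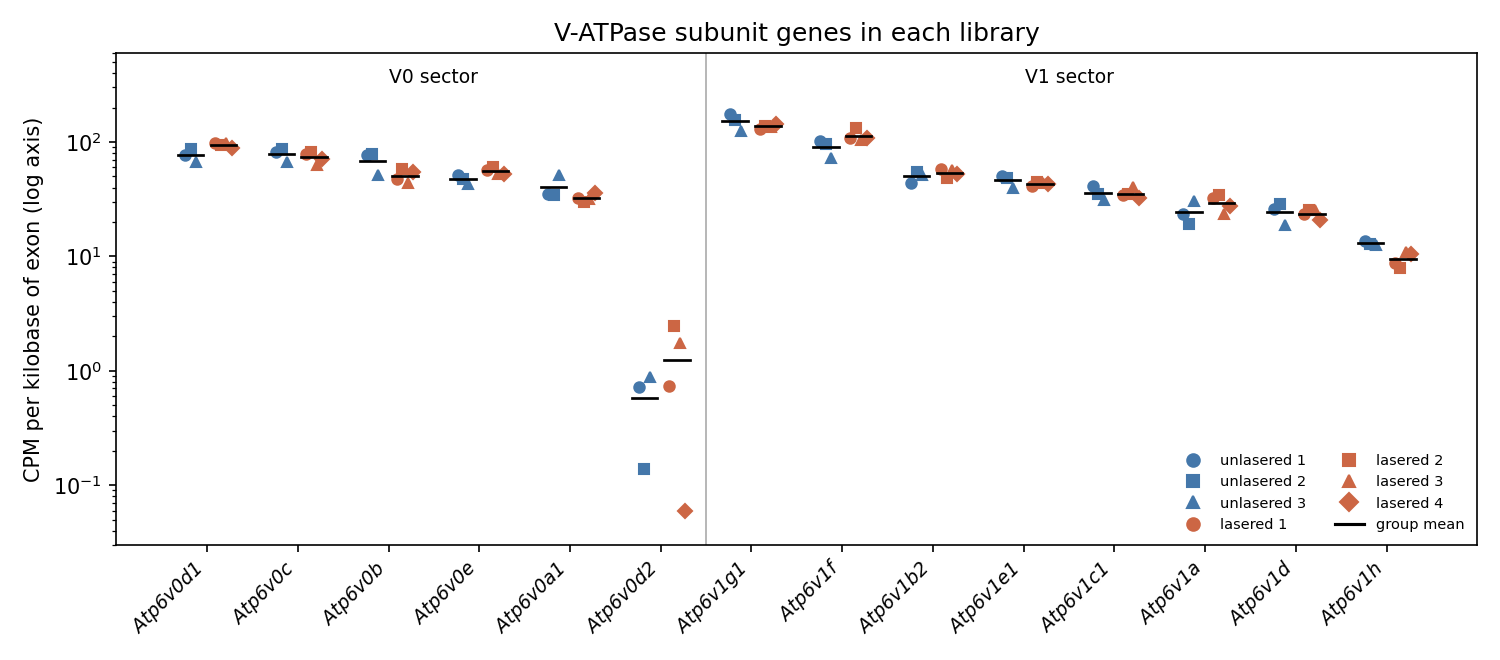
Level of the 6 V0 and 8 V1 subunit genes in CPM per kilobase of exon on a log axis, with each of the 3 unlasered libraries in blue, each of the 4 lasered libraries in orange and black lines at the group means. Atp6v0d2 lies far below the other 13 genes and spreads widest, while the other 13 lie between 7.91 and 174 CPM per kilobase.

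Both accessory proteins of the pump had lower means after laser and neither passed the test in limma, edgeR or DESeq2. Atp6ap1 encodes Ac45, which helps to assemble V0. Its level was 810, 707 and 687 CPM without laser and 585, 590, 677 and 606 CPM with laser. The groups did not overlap, the gap between lasered library 3 and unlasered library 3 was small, and the log2 fold change was -0.26 with an interval of -0.51 to -0.0039 (limma, adjusted p = 0.214). Atp6ap2 encodes the prorenin receptor, which also takes part in pump assembly. It was read at 334, 305 and 270 CPM without laser and at 238, 213, 310 and 229 CPM with laser. Lasered library 3 lay within the unlasered range and the other 3 below it, and the log2 fold change was -0.30 with an interval of -0.64 to 0.04.

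Of the 5 membrane proteins none passed the test in limma, edgeR or DESeq2, which called 6.93%, 7.33% and 13.3% of all genes tested. Only Laptm4a had an unadjusted p under 0.05 in limma, against 22.7% of all genes tested. Laptm4a encodes a small membrane protein of late endosomes and lysosomes. Its level was 938, 966 and 732 CPM without laser and 608, 530, 674 and 735 CPM with laser. Lasered library 4 just exceeded unlasered library 3, and the log2 fold change was -0.46 with an interval of -0.80 to -0.13 (limma, adjusted p = 0.103). Without unlasered library 3 it was -0.59 with an adjusted p of 0.0468 in limma. Laptm5 was read at 3739, 3545 and 4488 CPM without laser and at 4029, 4131, 3729 and 4038 CPM with laser. The lasered libraries lay inside the unlasered range, and the interval of the log2 fold change was -0.22 to 0.28. Mcoln1 encodes TRPML1, the calcium channel of the lysosomal membrane. It was read at 46.8, 60.0 and 53.7 CPM without laser and at 43.5, 41.0, 40.9 and 51.1 CPM with laser. Only lasered library 4 reached the unlasered range, and the log2 fold change was -0.27 with an interval of -0.60 to 0.06 (limma, adjusted p = 0.316). Lamp1 and Lamp2, the main glycoproteins of the membrane, ranged over all libraries from 857 to 1040 CPM and from 963 to 1214 CPM, with log2 fold changes of 0.12 and -0.01.

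None of the 3 transcription factors passed the test in limma, edgeR or DESeq2, and none had an unadjusted p under 0.05. Tfeb was read at 32.2, 27.7 and 25.9 CPM without laser and at 30.2, 30.0, 24.2 and 29.9 CPM with laser. The groups overlapped and their means were 28.6 ± 3.23 (SD, n = 3) and 28.6 ± 2.95 (SD, n = 4) CPM, with an interval of the log2 fold change of -0.34 to 0.34. Tfe3 was read at 124, 112 and 156 CPM without laser and at 121, 119, 112 and 143 CPM with laser, with a log2 fold change of -0.07 and an interval of -0.41 to 0.26, and of -0.18 without unlasered library 2. Mitf was read at 26.8, 29.3 and 42.6 CPM without laser and at 56.9, 56.5, 23.5 and 24.5 CPM with laser. Lasered libraries 1 and 2 lay above all unlasered ones and lasered libraries 3 and 4 below them all, and the interval of the log2 fold change ran from -0.59 to 0.98. The 8 monocyte markers summed to 204 and 242 CPM in lasered libraries 1 and 2, to 67.4 and 27.5 CPM in lasered libraries 3 and 4 and to 45.8 to 117 CPM without laser. Among them Ccr2 ran at 81.5 and 128 CPM in lasered libraries 1 and 2 against 19.7 and 7.57 CPM in the other two, and Ly6c2, against whose protein the sort was gated, at 0.884 and 0.891 CPM against 0.0436 and 0.108 CPM, with 0.392 to 0.527 CPM without laser. Some members were also lower in lasered libraries 1 and 2 than in lasered libraries 3 and 4, Lgmn, Atp6v1h and Laptm4a among them. Others were higher there, Lamp1 and Atp6v1a among them. The part of monocyte RNA in the values of Mitf and of these genes was not tested. Of the 10 markers of retinal pigment epithelium, a cell type that uses Mitf, 6 were under 1 CPM in every library, Rpe65 among them, and the 10 summed to 33.0 to 39.2 CPM in all 7.

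**Figure D5:**
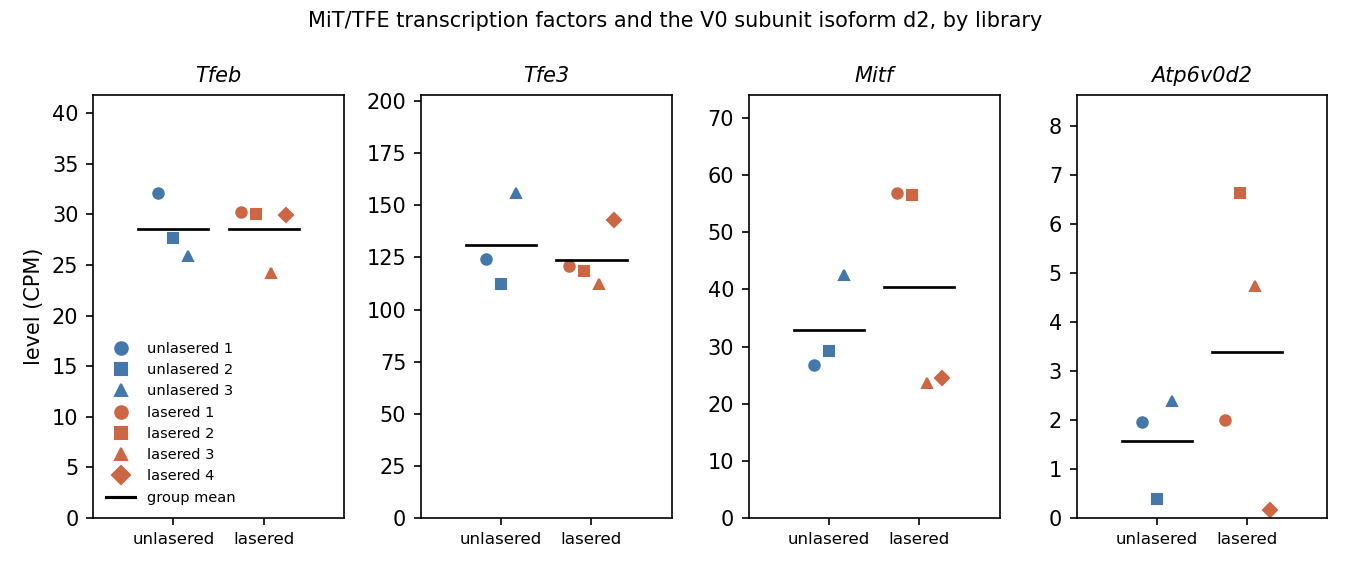
Level in CPM of Tfeb, Tfe3, Mitf and Atp6v0d2 in each of the 3 unlasered (left) and 4 lasered (right) libraries, with black lines at the group means and vertical axes that start at 0. For Tfeb and Tfe3 the groups overlap, with lasered library 3 lowest for Tfeb, and lasered libraries 1 and 2 sit high and 3 and 4 low for Mitf, and the lasered libraries span 0.162 to 6.64 CPM for Atp6v0d2.

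Because these factors can read the letters CACGTG, reference sequence around the gene starts was searched for these letters. The windows ran from 250 bases before to 50 bases after each start (RefSeq, GRCm38.p6). Windows were matched for 32 of the 38 genes by symbol, 41 windows in all. For 37 of them the downstream end of the window was found near the start of a transcript of the gene in GENCODE M21. CACGTG, which reads the same on both strands, was in a window of 10 of the 32 genes, against 8.09% of 27025 genes with a window and 11.4% of the 10553 such genes that passed the filter on low values. The longer TCACGTGA, which contains CACGTG and is also its own reverse complement, was in 5 of the 32 genes (Atp6v0d1, Atp6v0e, Atp6v1a, Gla and Mcoln1), against 1.12% and 2.06%. TCACGTGA with G before and C after was in none of the 32 and in 0.37% of all genes. The 250 bases before the start had a median GC content of 54.8% in the windows of the members against 52.4% over all windows. A match describes the reference letters and not a bound site.

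The following stretches show the match in capitals in 5 genes, read 5′ to 3′ on the strand of the gene, chosen to span enzymes, a channel and pump subunits, with values after laser on both sides of 0.
Naglu, chr11:101070011-101070036, plus strand: accttcaggtCACGTGgcccgaggtc
Gla, chrX:134601217-134601242, minus strand: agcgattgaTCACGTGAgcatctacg
Gla, chrX:134601184-134601209, minus strand: agatctcggTCACGTGAgcaactctc
Mcoln1, chr8:3500464-3500489, plus strand: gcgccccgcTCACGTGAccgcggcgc
Atp6v1a, chr16:44139375-44139400, minus strand: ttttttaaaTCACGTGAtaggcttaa
Atp6v0b, chr4:117887350-117887375, minus strand: gcgcgggggtCACGTGgggtcggcgc

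The log2 fold changes of the genes above were 0.46 for Naglu, 0.80 for Gla, -0.27 for Mcoln1, 0.29 for Atp6v1a and -0.41 for Atp6v0b. The 10 genes with CACGTG also include Lamp1, Glb1 and Lgmn. The window of Lgmn with the match is one whose downstream end was not found near the start of a GENCODE transcript. Among the 10, 7 log2 fold changes were above 0, with a median of 0.17, against 8462 of the 17496 genes tested. None of the 10 was called in limma or edgeR, while DESeq2 called Naglu. Of all genes tested, limma called 6.93%, edgeR 7.33% and DESeq2 13.3%. Among the 22 with a window without CACGTG, 10 were above 0, with a median of -0.02. The windows of Grn and Gusb, the 2 genes called, do not hold CACGTG. Other E-box letters were not searched for, so a window without CACGTG may hold another sequence that these factors read.

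Other genes of the same pathways were taken from lists of known function. Of 9 further V-ATPase isoforms 6 were tested and 2 were called by limma, against 6.93% of all genes tested. Tcirg1, which encodes the a3 subunit of osteoclasts and macrophages, rose, from 47.6, 60.3 and 70.8 CPM to 104, 118, 88.6 and 95.6 CPM, with a log2 fold change of 0.77 (limma, adjusted p = 0.0305). The call was lost without any 1 of 6 libraries, unlasered library 3 being the exception, with adjusted p-values up to 0.0896. Every lasered library lay above every unlasered one. Atp6v0a4, the a4 subunit known from the kidney, fell from 6.44 ± 1.55 (SD, n = 3) to 2.67 ± 0.440 (SD, n = 4) CPM. Its log2 fold change was -1.01 on the log2(CPM + 1) scale (limma, adjusted p = 0.0286) and -1.27 in edgeR. The limma call was lost without any 1 of the same 6 libraries, with adjusted p-values up to 0.0744. Atp6v0a2, the a2 subunit, was read at 28.8, 30.6 and 30.0 CPM without laser and at 39.4, 37.5, 40.6 and 34.9 CPM with laser, without overlap, and did not pass the test (limma, adjusted p = 0.151). Atp6v0e2, a subunit common in neural tissue, was read at 6.02, 83.4 and 16.7 CPM without laser and at 1.32 to 3.42 CPM with laser. It did not pass the test in limma (adjusted p = 0.0546) and was called lower by edgeR and DESeq2, by limma with a pseudocount of 0.1 CPM (adjusted p = 0.0487), and by limma without unlasered library 1 (log2 fold change -3.45, adjusted p = 0.0176). Without unlasered library 2 the log2 fold change in limma was -1.66 in place of -2.63. With all libraries it was -3.75 in edgeR and in DESeq2. Its order over the unlasered libraries is that of the rod genes, and their part in it was not tested.

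Of 34 further lysosomal genes, all tested, 1 was called by limma and by edgeR and 2 by DESeq2, Galns and Plbd2, against 6.93%, 7.33% and 13.3% of all genes tested by limma, edgeR and DESeq2. Galns, the sulfatase of keratan sulfate breakdown, rose from 15.6 ± 0.860 (SD, n = 3) to 24.3 ± 1.34 (SD, n = 4) CPM, with a log2 fold change of 0.61 (limma, adjusted p = 0.0363). That call was lost without any 1 of the 6 libraries other than unlasered library 3, with adjusted p-values up to 0.117. Of the 34 log2 fold changes 25 were above 0, against 8462 of the 17496 genes tested, with a median of 0.14 beside -0.014. Without overlap of the groups 6 were higher and 3 lower, against 10.4% and 10.7% of all genes. Among those that did not pass the test in limma, Plbd2 and Lipa, a phospholipase-like protein and the acid lipase, had log2 fold changes of 0.39 and 0.26, and Galc, the enzyme that degrades galactosylceramide, had -0.54 (limma, adjusted p = 0.118).

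Of 20 genes of nutrient sensing and TFEB control, all tested, 1 was called by limma and by edgeR and 2 by DESeq2, Rragb and Tfec, against 6.93%, 7.33% and 13.3% of all genes. Rragb, a Rag GTPase that recruits mTORC1 to the lysosome, fell, from 2.25, 5.69 and 2.22 CPM to 1.22, 0.846, 0.762 and 0.377 CPM (limma, adjusted p = 0.0456). The call was lost without any 1 of the 6 libraries other than unlasered library 3, with adjusted p-values up to 0.106. Its levels are low in all libraries, and the highest one is in unlasered library 2, without which the log2 fold change was -0.87 in place of -1.21 (limma, adjusted p = 0.0928). With all libraries the log2 fold change of Rragb was -2.08 in edgeR and -2.09 in DESeq2. Tfec, the fourth factor of the family, was read at 10.1, 9.87 and 10.9 CPM without laser and at 28.1, 20.9, 29.4 and 9.43 CPM with laser. Lasered libraries 1, 2 and 3 lay well above the unlasered ones and lasered library 4 below them, and the log2 fold change of 0.91 did not pass the test (limma, adjusted p = 0.152). Without lasered library 4 it was 1.25 with an adjusted p of 0.0180 in limma. Of 10 genes that sort hydrolases to the lysosome 9 were tested and none was called in limma, with none at an unadjusted p under 0.05 and none called by edgeR or DESeq2.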

How the data were processed

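RNA of sorted retinal microglia was measured in 7 libraries, 3 unlasered and 4 lasered, all labelled Irf8 KO. Per the labels and the study's methods, the authors amplified cDNA with a kit that does not mark strand, removed adapters with cutadapt and duplicates with FastUniq, mapped reads with Bowtie2 to GRCm38, and counted them with HTSeq per gene of Ensembl annotation version 90. The deposited columns are headed TPM, but they hold CPM: the authors' values are whole multiples of 1 step per library for 100% of values, within 0.1 reads, so whole reads could be recovered. Genes of GENCODE M21 were matched by Ensembl identifier for lengths and positions. Lengths are of exons, and whether reads in introns were counted is not given in the sources used here. Reads listed jointly with an overlapping gene were included as the table gives them by symbol.

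Of 40743 genes, 17496 reached 1 CPM or more in 3 or more libraries and were tested by limma 3.58.1 (trend and robust empirical Bayes, two-sided, R 4.3.3) on log2(CPM + 1), with Benjamini-Hochberg adjustment over all of them and a threshold of 0.05. It called 1213 genes, 676 higher and 537 lower after laser. A log2 fold change on this scale understates the change of low genes. On recovered reads, edgeR 4.0.16 called 1283 genes and DESeq2 1.42.0 called 2318. The alternatives were those tools, median-of-ratios scaling, a pseudocount of 0.1 CPM, no filter, a mean of at least 10 CPM, the study's thresholds (log2 fold change beyond 1.5 either way, unadjusted p under 0.05 and a mean of at least 100 in a group), a replicate block and leaving out each library. Scripts were tested on simulated data.

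Values in every library are given for genes with an adjusted p under 0.05, for those with an unadjusted p under 0.05 without overlap of the groups, for Tfeb, Tfe3, Mitf and Mcoln1, and for the highest and lowest level per kilobase in each role. Laptm4a and the genes named from the further lists fall outside that rule and were chosen after their values were seen. The members and gene lists were chosen with earlier results of these data known. Nothing in the labels says how the pools were drawn beyond their size, so p-values measure the spread between these libraries.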

Additional observations from a re-analysis of the deposited data

Results flagged for a closer look

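The levels of the 38 genes were checked for a library that stands apart among the 4 lasered ones, and 2 of 38 did so by the gap between the end value and its neighbour relative to the whole range (Dixon's 95% value); chance gives about 1 in 20. Naglu was highest in lasered library 4, at 283 CPM against 217 to 225 CPM in the other 3. Tfeb was lowest in lasered library 3, at 24.2 CPM against 29.9 to 30.2 CPM in the other 3.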

How the results depend on the processing

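The 1213 genes called became 2318 with DESeq2, 626 with a mean of at least 10 CPM, 385 with no filter and 54 at the study's thresholds, and 264 to 1248 without 1 library (lowest without lasered library 2, highest without unlasered library 3). Of the 38 members, 1 was called with edgeR, with a mean of at least 10 CPM and with no filter, 0 at the study's thresholds, and 1 to 3 without 1 library. Beside those thresholds, at which neither was called, Grn was called in 13 of 14 alternative fits and Gusb in 4, with adjusted p-values for Gusb of 0.0491 to 0.140 when 1 library was left out. Naglu was called by DESeq2 (adjusted p = 0.0427), Gla without unlasered library 2 (adjusted p = 0.0362 in limma), and Atp6v0b and Laptm4a without unlasered library 3 (adjusted p = 0.0429 and 0.0468 in limma).

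Same-numbered libraries did not deviate together (correlations of -0.18, -0.13 and -0.02), beside -0.11 to 0.21 for differently numbered ones. With so few libraries these values do not settle whether the numbers pair them. With a replicate block, in which lasered library 4 has no partner, 3 genes and 0 members were called, with log2 fold changes of 0.67 for Grn (adjusted p = 0.0946), 0.47 for Gusb and -0.023 for Tfeb.

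Median-of-ratios scaling moved the median of all genes by 0.07, that of the members to 0.077 (0.059 over all genes) and the V-ATPase sum from -37.8 to 90.9 CPM, lasered minus unlasered (-99.1 to -2.30 CPM without 1 library). It turned the log2 fold changes of Hexa to 0.048 and of Tfe3 to 0.0090. Without 1 library, those of Laptm5 ran from -0.042 to 0.13, of Hexa from -0.087 to 0.036, of Tfeb from -0.065 to 0.086, of Tfe3 from -0.18 to 0.060 and of Mitf from -0.0079 to 0.41. These 5 genes were called in none of the alternatives. The cause of these shifts was not tested. Chosen after seeing the data, the same alternatives for the named genes of the further lists took the limma calls of Tcirg1, Atp6v0a4, Galns and Rragb with no filter, with the block and without each library but unlasered library 3. Also chosen then, the windows of genes that passed the filter held CACGTG in 11.4% and TCACGTGA in 2.06%, against 8.09% and 1.12% of all genes with a window.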
